A study of Mus musculus with 12 samples.

Results

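Oxidative phosphorylation genes were taken as the protein-coding genes of the GRCm38 mouse annotation whose symbols start with mt-, match a numbered Nduf gene, or belong to the Sdh, Uqcr, Cyc1, Cox4 to Cox8 or Atp5 series. The symbol rule found 100 of the 35272 genes in the files. Of these, 13 are encoded by mitochondrial DNA and 87 by nuclear DNA. The rule reads symbols and no measured value, though the pathway itself was picked with earlier results of these data known. The tissue was prefrontal cortex, taken from female mice of the inbred strain C57BL/6JN aged 4 months (young) or 20 months (old). The mice had received saline or 3 mg/kg morphine, an opioid analgesic, by intraperitoneal injection. Crossing age with treatment gave 4 groups of 3 libraries, 12 in all. The time from injection to tissue collection is not given in the sources used here. Whether each replicate came from its own animal is not stated in the labels, and p-values then cover only the spread between these samples, which may be technical.

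The respiratory chain sits in the inner mitochondrial membrane, where complexes I to IV pass electrons from NADH and succinate to oxygen and pump protons, and complex V uses the proton gradient to make ATP. Complexes I, III, IV and V are mosaics, with subunits translated inside the organelle from mitochondrial DNA and subunits imported from the cytosol, while complex II is built from nuclear genes alone. Neurons depend heavily on this pathway to restore ion gradients and to sustain synaptic transmission.

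Mitochondrial transcripts could not always be told from nuclear copies of themselves. Chromosome 1 carries annotated pseudogenes that repeat mt-Co2 and mt-Co3 at 100% identity, and a copy of mt-Nd3, named Gm28438, that differed at 1 of 345 aligned bases. The first 23 bases of mt-Nd3 (chrM:9459-9481, plus strand) and the matching stretch of Gm28438 (GRCm38 chr1:24613097-24613119, minus strand) are shown because this base is all that separates them. The capital marks the substitution T3C, counted from 1 at the 5′ end of mt-Nd3.
mt-Nd3: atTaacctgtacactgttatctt
Gm28438: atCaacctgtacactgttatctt
Reads given to copies made up 39.2 to 59.4% of the joint mt-Nd3 reads of a library. The share was 5.56 to 45.6% for mt-Co2, 12.1 to 46.9% for mt-Co3, 3.16 to 8.46% for mt-Co1 and 0 to 7.17% for mt-Atp6. The levels of these 5 genes are therefore uncertain as deposited, and values with the copies added are given where they change the sign of a gene or the ends of a range.

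**Figure D1:**
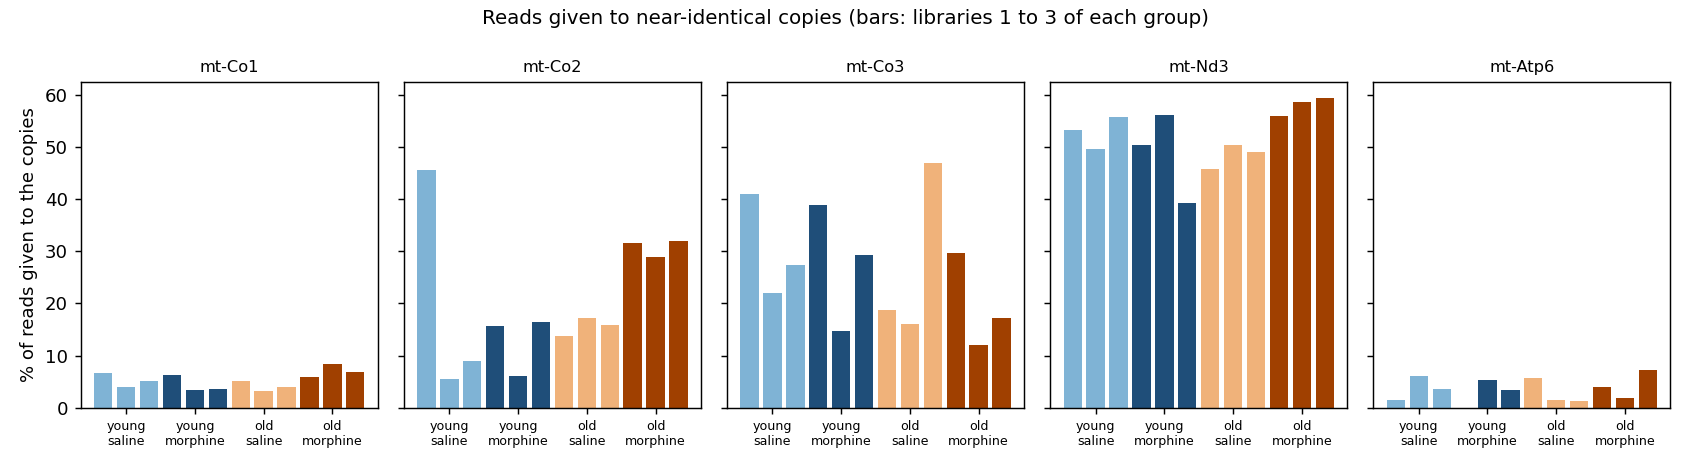
Share of the joint reads of a mitochondrial gene and its near-identical copies that was given to the copies (%, vertical axis) in each of the 12 libraries (bars, coloured by group). The share for mt-Co2 reached 45.6% in young saline replicate 1, and that for mt-Nd3 lay between 39.2 and 59.4%.

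A second feature of the mitochondrial members is overlap. The transcript of mt-Atp8, a small membrane subunit of complex V, is shown whole (chrM:7766-7969, plus strand, 204 bases), with the 43 bases it shares with the start of mt-Atp6 in capitals.
mt-Atp8: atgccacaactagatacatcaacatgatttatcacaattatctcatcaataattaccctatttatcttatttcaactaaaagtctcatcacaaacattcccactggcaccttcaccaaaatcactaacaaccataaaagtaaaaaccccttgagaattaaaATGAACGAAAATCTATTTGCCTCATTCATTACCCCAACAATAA
Its deposited effective length, the number of positions at which a fragment could start, was 28 bases in 11 libraries and 29 in the other. Its TPM (reads per length, scaled to the same total in each library) rests on that short length.

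The libraries held 20217161 to 40446974 estimated reads matched to genes, and young morphine replicate 2 held 148718941. All 10 markers of cortical excitatory neurons were detected in every group, with a summed level of 5300 to 6942 CPM (counts scaled to a common library total). The 9 striatal markers summed to 229.5 to 268.6 CPM. The 10 olfactory bulb markers summed to 117.1 CPM in young morphine replicate 3 and 116.9 in old morphine replicate 1. They summed to 55.79 and 60.55 CPM in old saline replicates 1 and 2, and to 13.14 CPM or less in the others. In bulk tissue, fewer cells of a type and less RNA per cell cannot be told apart.

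Per length, mitochondrial members were far more abundant than nuclear ones. Mean TPM over the 12 libraries ran from 1974 for mt-Nd6, the complex I gene on the opposite strand, to 25930 for mt-Co1, the catalytic core of complex IV. The marker mt-Nd1, a membrane subunit of complex I, had a mean of 11340 TPM. Median TPM of nuclear members was 157.1 for complex I, 115.2 for complex II, 218.0 for complex III, 289.5 for complex IV and 284.7 for complex V. The highest nuclear member was Cox8a, a small subunit of complex IV, at 1366 TPM. In the other complexes the highest were Atp5b, the catalytic subunit of complex V, at 895.1, Ndufa4 at 589.3, Uqcr11 at 388.4 and Sdha, the flavoprotein of complex II, at 237.1 TPM. Ndufa4 was counted with complex I by its symbol, though its protein is known as a subunit of complex IV.

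Tissue isoforms were strongly unequal. Cox4i1 had a mean of 892.1 TPM against 3.93 for Cox4i2, an isoform linked to low oxygen. Cox6a1 had 677 TPM against 5.43 for the muscle isoform Cox6a2. Cox7a2 had 345.6 TPM against 6.01 for the muscle isoform Cox7a1, and Cox6b1 had 500.6 against 6.55 for the testis isoform Cox6b2. Ndufa4 stood at 589.3 TPM against 3.63 for Ndufa4l2. The 3 genes for the c subunit of the complex V rotor, which encode the same mature protein, ranked Atp5g3 (537 TPM), Atp5g1 (261.7) and Atp5g2 (46.0). Cox8b, Cox8c and Cox7b2 reached at most 12, 0 and 34 reads in a library and did not pass the filter on low counts, which left 97 members for the tests. A second gene model named Atp5o, which overlaps the first on chromosome 16, had a mean of 1.77 TPM against 305.7 and its reads may be divided between the models.

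The 13 mitochondrial members together took 4.42, 4.25 and 4.45% of the reads in young saline replicates 1 to 3. They took 3.50, 3.97 and 3.31% in young morphine, 4.18, 4.53 and 3.98% in old saline, and 4.28, 3.64 and 5.90% in old morphine. All young morphine libraries were below all young saline libraries, and old morphine replicate 3 was the highest of the 12. The 87 nuclear members took 0.610, 0.567 and 0.575% in young saline and 0.628, 0.610 and 0.604% in young morphine. They took 0.579, 0.572 and 0.584% in old saline and 0.531, 0.566 and 0.568% in old morphine. As a share of reads, the nuclear sum of all old morphine libraries was below that of all young morphine libraries. In CPM scaled by TMM these groups overlapped, at 5235, 5641 and 5947 in old morphine and 6276, 6156 and 5930 in young morphine.

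The ratio of the sums within a library does not depend on how libraries are scaled. On the log2 scale it was 2.86, 2.91 and 2.95 in young saline, 2.48, 2.70 and 2.45 in young morphine, 2.85, 2.99 and 2.77 in old saline, and 3.01, 2.69 and 3.38 in old morphine. The mean was 2.90 ± 0.05 (SD, n = 3) in young saline, 2.54 ± 0.14 in young morphine, 2.87 ± 0.11 in old saline and 3.02 ± 0.35 in old morphine. Young morphine was lower than young saline by 0.36, with no overlap, and old morphine overlapped old saline. With the reads of the copies added, the means were 3.01, 2.64, 2.96 and 3.15 in the same order. No test was made of this sum over members.

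**Figure D2:**
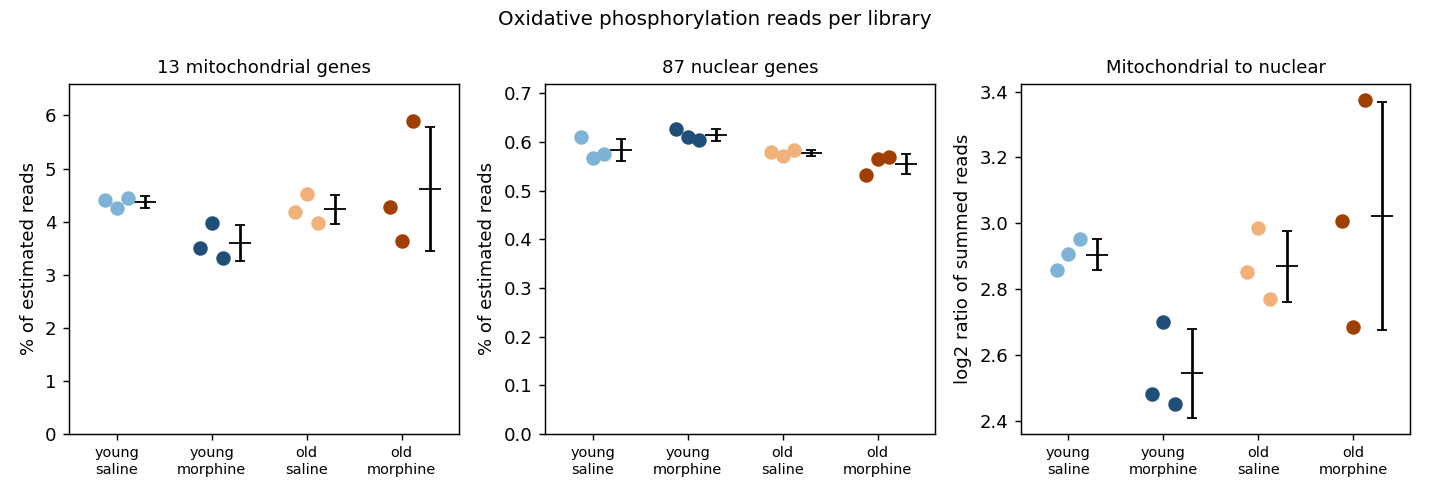
Share of estimated reads in the 13 mitochondrial genes and in the 87 nuclear genes (%), and the log2 ratio of their sums, by group. Points are libraries, and bars are the mean and SD of 3 libraries; the 3 young morphine ratios (2.45 to 2.70) lie below the 3 young saline ratios (2.86 to 2.95), and old morphine spans 2.69 to 3.38.

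Genes were compared with edgeR's quasi-likelihood test over 16796 genes, with Benjamini-Hochberg adjusted p and a threshold of 0.05. Counts of members at an unadjusted p under 0.05 are given without the share of all genes at that cut. They are therefore not read as a result about the members. The first comparison asked how old mice differed from young mice under saline. By edgeR 0 of 97 members passed the threshold, and 10 had an unadjusted p under 0.05; of all genes, 0.464% passed. DESeq2 and limma-voom also called 0 members. Nuclear members had a median log2 fold change of -0.06, with 68 of 84 below 0, against 0.01 and 47.7% below 0 for all genes. Mitochondrial members had a median of -0.15, with 10 of 13 below 0, and with the copies added all 13 were below 0. With the GC and length trend of each library removed, the nuclear median was -0.11, with 80 of 84 below 0. The mitochondrial median was then -0.31, with 13 of 13 below 0, against -0.05 for all genes. The smallest adjusted p of a member was 0.217, for Cox6a1 in complex IV, with a log2 fold change of -0.35 ± 0.11 (SE). Atp5k of complex V had -0.34 ± 0.14, Ndufa1 of complex I -0.24 ± 0.10 and Uqcr11 of complex III -0.18 ± 0.08, none past the threshold. Cortical excitatory marker sums were lower in old saline (5351 to 6206 against 6327 to 6942 CPM). So were those of oligodendrocyte precursors (131.9 to 143.3 against 149.0 to 157.2). Slc17a7 of the cortical list and Gpr17 of the precursor list (24.69 to 25.48 against 38.03 to 42.75 CPM) were lower in every old saline library. The other markers of these lists overlapped. Interneuron (564.3 to 635.9 against 501.6 to 542.8) and choroid plexus sums (8.746 to 19.09 against 6.478 to 7.839) were higher. Of these lists Gad1 (227.5 to 275.1 against 198.3 to 204.5 CPM) and Kl (6.514 to 10.61 against 5.229 to 6.108) were higher in every old saline library. The other markers of both lists overlapped, with Ttr of the choroid plexus at 0.6041 CPM or less. With an olfactory bulb score in the model 0 members had an unadjusted p under 0.05, with a nuclear median of 0.0155. The part of these cells was not tested.

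For morphine in young mice edgeR called 0 of all 16796 genes (0.0%), and 7 members had an unadjusted p under 0.05. DESeq2 called 161 genes and limma-voom 2, with 0 members among them. All 13 mitochondrial members had a negative log2 fold change, from -0.99 for mt-Atp8 to -0.14 for mt-Co2, with a median of -0.40, and the smallest adjusted p was 0.549. With the copies added all 13 were still negative, mt-Co2 stood at -0.27, and the value nearest 0 was -0.21, for mt-Co3. For 9 of the 13, every morphine library was below every saline library in CPM, which held for 8.22% of all genes. The marker mt-Nd1 stood at 4109, 3082 and 3406 CPM in young saline and 2652, 2876 and 2288 CPM in young morphine, which did not overlap. Its log2 fold change was -0.44 ± 0.22 (adjusted p = 0.604). In the nuclear set the median was 0.03, with 52 of 84 above 0. Cyc1, the haem subunit of complex III that hands electrons to cytochrome c, had 0.18 ± 0.06 and Uqcrc1, a core subunit of the same complex, 0.18 ± 0.07, neither past the threshold. Several marker sums did not overlap between these groups, and their part in the changes was not tested. The 10 myelin markers summed to 566.3 to 850.9 CPM in young saline and 956.7 to 1073 in young morphine. The sums in young morphine were lower for cortical excitatory neurons (5695 to 6256 against 6327 to 6942 CPM) and astrocytes (1522 to 1673 against 1772 to 1864 CPM). They were also lower for striatal neurons (237.7 to 247.1 against 252.6 to 268.6 CPM), microglia (272.3 to 299.2 against 305.3 to 329.2) and oligodendrocyte precursors (131.1 to 143.5 against 149.0 to 157.2). Camk2a made up most of the cortical excitatory sum, at 4670, 4297 and 4594 CPM in young saline and 4116, 3837 and 3665 in young morphine. Cux2 was also lower in every young morphine library. Fezf2 was higher in every one (26.05 to 33.15 against 12.29 to 25.79 CPM), and the other markers of that list overlapped. With a myelin score in the model the mitochondrial median was -0.73 and the nuclear median -0.08.

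Morphine in old mice gave 0 called members by edgeR, with 12 at an unadjusted p under 0.05, where 0.583% of all genes passed. DESeq2 called 2 members (2.06%), mt-Atp8 and Ndufa7, and 4.58% of all genes. The mitochondrial median was 0.23 and 11 of 13 were above 0. The others, mt-Co2 and mt-Nd3, both at -0.17, stood at 0.11 and 0.13 with the copies added, and all 13 were then above 0. With the trend removed the median was 0.04, against 0.03 for all genes, and 5 of 13 were below 0. The median as deposited was -0.07 without old morphine replicate 3. mt-Nd1 stood at 3138, 3271 and 2860 CPM in old saline and 3342, 2546 and 4956 CPM in old morphine, with overlapping groups and a log2 fold change of 0.23 ± 0.22 (adjusted p = 0.607). Nuclear members had a median of -0.02, and of 0.04 with the trend removed. Ndufa7, an accessory subunit of complex I, had -0.30 ± 0.09 (adjusted p = 0.104), Uqcr11 -0.26 ± 0.08 and Cox8a -0.23 ± 0.08, with adjusted p of 0.121 and 0.135 by edgeR. Marker sums were lower in old morphine for microglia (278.3 to 279.7 against 288.7 to 373.3 CPM) and oligodendrocyte precursors (116.3 to 127.3 against 131.9 to 143.3). Csf1r, C1qa, Pdgfra and Cspg4 were lower in every old morphine library, and the other markers of these lists overlapped. The part of these cells was not tested here.

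The difference between the morphine effects of the ages was tested directly, and 0 genes (0.0%) passed by edgeR, with 16 members at an unadjusted p under 0.05. Without the share of all genes at that cut, the 16 cannot be read as an excess. The mitochondrial median of that difference was 0.63, and 12 of 13 were above 0. The exception, mt-Co2, had -0.04 as deposited and 0.38 with the copies added, with all 13 then above 0. The median was 0.33 without old morphine replicate 3 and 0.31 with the GC and length trend of each library removed. The nuclear median was -0.07. DESeq2 called 87 genes (0.518%), 1 of them a member, mt-Atp8 (1.03% of members), and limma-voom 0. mt-Atp8 stood at 452.2, 291.8 and 298.9 CPM in young saline and 137.8, 242.0 and 144.0 in young morphine. In old saline it stood at 341.7, 214.8 and 116.3 CPM, and in old morphine at 443.7, 431.0 and 980.9. Morphine libraries were all below saline in young mice and all above saline in old mice, and the difference of the effects was 2.45 ± 0.68 (adjusted p = 0.308 by edgeR). Reads of mt-Atp8 were 3.99 to 14.1% of those of mt-Atp6, with the copies of mt-Atp6 added. The share was 10.5, 10.8 and 14.1% in old morphine and at most 10.1% in the other groups.

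**Figure D3:**
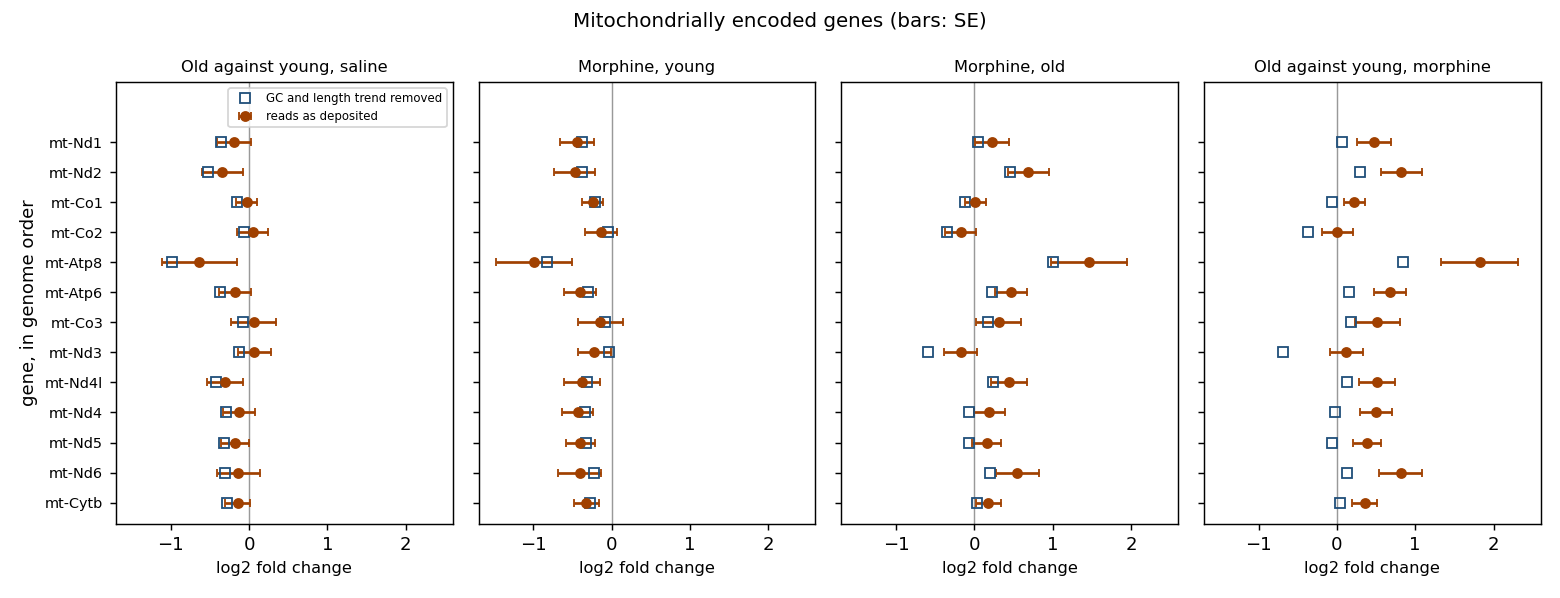
Log2 fold change of the 13 mitochondrial genes, in genome order, in 4 comparisons. Filled circles with SE bars are from the reads as deposited and open squares from the fit with the GC and length trend removed; in old against young under morphine the median was 0.50 in the first and 0.06 in the second.

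In the reads as deposited, edgeR called more genes for old against young mice under morphine than in the other comparisons. With the trend removed it called fewer genes here (44) than for age under saline (132) or morphine in old mice (90), and with length-scaled counts fewer (25) than for morphine in old mice (30). As deposited 10 of 97 members (10.3%) passed the threshold, close to the 9.65% of all genes, and all 10 were nuclear and lower in old mice. Among all genes 4.72% were called and lower. The 10 belonged to complex III (Cyc1, Uqcr11, Uqcrc1 and Uqcrfs1), complex I (Ndufa7, Ndufb8 and Ndufv1), complex V (Atp5d and Atp5g1) and complex IV (Cox8a). Of the 4 complex II genes 0 passed. Nuclear members had a median of -0.11, with 64 of 84 below 0. For 32 of the 84, every old library was below every young library in CPM, which held for 16.0% of all genes. Summed cortical excitatory neuron markers were 5695 to 6256 CPM in young morphine and 5300 to 5526 in old morphine. Oligodendrocyte precursor sums were also lower in old morphine (116.3 to 127.3 against 131.1 to 143.5 CPM). In that list only Gpr17 was lower in every old morphine library (23.81 to 25.65 against 33.75 to 38.49 CPM). Striatal sums were higher (251.2 to 260.8 against 237.7 to 247.1 CPM). The part of these markers in the changes was not tested.

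In complex III, Uqcr11, a small peripheral subunit (chr10:80402997-80406830), fell most on the log2 scale of the called members. It stood at 49.96, 40.12 and 47.71 CPM in young saline, 47.41, 44.87 and 45.59 in young morphine, 39.29, 41.32 and 40.86 in old saline, and 31.97, 32.29 and 36.90 in old morphine. The old morphine libraries were below all 9 others, and the log2 fold change between ages under morphine was -0.44 ± 0.08 (adjusted p = 0.00662). Cyc1 (chr15:76343523-76346260) stood at 80.21, 77.57 and 73.42 CPM in young morphine and 59.08, 60.25 and 64.58 in old morphine. Under saline it stood at 72.64, 65.04 and 65.88 CPM in young and 64.46, 65.14 and 63.03 in old mice. Young morphine was the high group for Cyc1, and the change was -0.33 ± 0.06 (adjusted p = 0.00656).

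Uqcrc1 (chr9:108936633-108949623) stood at 134.5, 136.3 and 128.2 CPM in young morphine and 106.2, 108.1 and 111.4 in old morphine, against 129.5, 112.0 and 111.3 in young saline and 118.6, 104.8 and 116.2 in old saline. The morphine groups did not overlap, and the change was -0.29 ± 0.07. Uqcrfs1, the Rieske iron-sulphur subunit (chr13:30540308-30545362), stood at 62.34, 63.16 and 64.90 CPM in young morphine and 50.27, 53.00 and 55.60 in old morphine. Its saline levels were 61.67, 56.77 and 55.09 CPM in young and 57.18, 54.06 and 56.17 in old mice. Saline groups overlapped and morphine groups did not, with a change of -0.26 ± 0.06. Both adjusted p were 0.0148 by edgeR.

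In complex IV, Cox8a (chr19:7215153-7217616) stood at 192.7, 154.2 and 170.9 CPM in young saline and 184.0, 157.1 and 166.0 in young morphine. In old mice it stood at 146.8, 156.7 and 157.5 CPM under saline and 128.2, 128.6 and 135.6 under morphine. Old morphine was below all other libraries, with a log2 fold change of -0.37 ± 0.08 (adjusted p = 0.0111) against young morphine. The next complex IV member was Cox5b, with -0.24 ± 0.08, which did not pass (adjusted p = 0.0797).

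In complex I, Ndufa7 (chr17:33824572-33838317) stood at 30.92, 28.87 and 28.50 CPM in young morphine and 20.39, 21.45 and 25.96 in old morphine. Its saline levels, 29.25, 26.34 and 29.07 CPM in young and 26.76, 28.51 and 28.23 in old mice, overlapped. The change under morphine was -0.38 ± 0.09 (adjusted p = 0.015). Ndufv1, the subunit that binds NADH (chr19:4007384-4012806), stood at 103.1, 98.34 and 98.03 CPM in young morphine and 81.40, 91.21 and 81.66 in old morphine. Under saline it stood at 94.39, 87.90 and 90.82 CPM in young and 91.19, 85.89 and 90.11 in old mice, which overlapped. Ndufb8, an accessory subunit of the membrane arm (chr19:44548572-44555440), stood at 70.29, 69.12 and 67.65 CPM in young morphine and 58.18, 53.49 and 62.90 in old morphine. Its saline levels were 69.04, 61.18 and 61.16 CPM in young and 62.14, 61.75 and 63.96 in old mice. Both genes changed by -0.24 on the log2 scale, with adjusted p of 0.0186 and 0.0307 by edgeR.

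In complex V, Atp5d, part of the central stalk (chr10:80138632-80145818), stood at 101.4, 97.37 and 92.08 CPM in young morphine and 75.86, 73.81 and 79.38 in old morphine. Its saline levels were 103.7, 86.43 and 89.99 CPM in young and 81.76, 83.65 and 86.42 in old mice, where all old libraries were lower, the closest pair by 86.42 against 86.43 CPM. Under morphine the change was -0.34 ± 0.07 (adjusted p = 0.00857). Atp5g1 (chr11:96068852-96075670) stood at 75.14, 71.91 and 69.22 CPM in young morphine and 57.90, 58.42 and 64.05 in old morphine. Under saline it stood at 67.08, 62.22 and 63.93 CPM in young and 60.38, 55.61 and 56.73 in old mice. Old libraries were the lower ones under both treatments, with a change of -0.26 ± 0.06 under morphine (adjusted p = 0.0153). The other c subunit genes had -0.18 ± 0.06 (Atp5g3) and -0.56 ± 0.30 (Atp5g2), neither past the threshold.

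**Figure D4:**
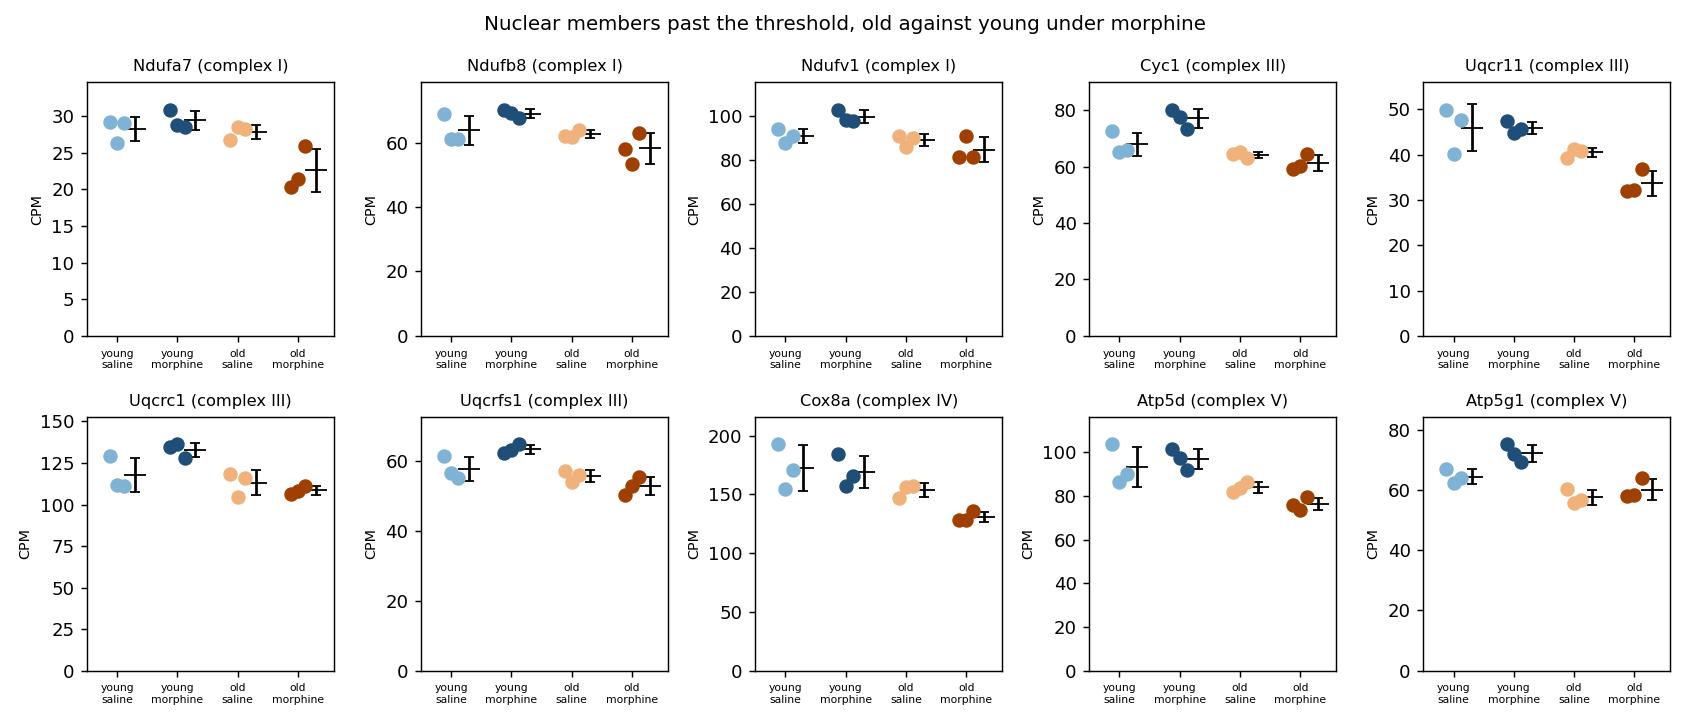
CPM of the 10 nuclear members past the threshold in old against young mice under morphine, in all 12 libraries (points), with the mean and SD of 3 libraries per group (bars). In Uqcr11 and Cox8a the old morphine points (31.97 to 36.90 and 128.2 to 135.6 CPM) lie below all others.

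Mitochondrial members had the opposite sign in this comparison. All 13 had a log2 fold change above 0, from 0.01 for mt-Co2 to 1.82 ± 0.49 for mt-Atp8, with a median of 0.50, and 0 passed the threshold by edgeR, with 6 at an unadjusted p under 0.05. DESeq2 called 4 (mt-Nd2, mt-Nd6, mt-Atp6 and mt-Atp8), in a comparison where it called 14.1% of all genes. For 4 of the 13 every old library was above every young library, which held for 17.1% of all genes. The median was 0.18 without old morphine replicate 3. mt-Atp6 had 0.68 ± 0.20 (adjusted p = 0.0652) and mt-Nd1 0.47 ± 0.22 (adjusted p = 0.202) by edgeR. Adding the copies moved mt-Co2 from 0.01 to 0.34, mt-Nd3 from 0.12 to 0.40 and mt-Co3 from 0.52 to 0.37. Levels of mt-Co2 in young saline were 2645, 4013 and 4410 CPM as deposited and 4857, 4255 and 4851 with the copies, so the low library was low only without them.

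These changes ran with the base composition of the transcripts. Mitochondrial members had a GC share of 31.9 to 41.1% and nuclear members one of 41.9 to 61.0%. Across 16780 genes the change between ages under morphine had a Spearman rho of -0.574 with GC share, and across the 84 nuclear members one of -0.582, where genes share the same libraries. The 1327 other genes in the GC range of the mitochondrial members had a median of 0.30, against 0.50 for the 13. Of the 42 nuclear members above the median GC share of 52.1%, 9 passed and the median was -0.17, against 10.6% and -0.12 in 6110 other genes of that GC range. Of the 42 at or below it, 1 passed (Uqcrfs1, 48.6% GC) and the median was -0.05, against 5.04% and 0.07 in 8360 other genes.

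The slope of log2 CPM on GC share, per 10 percentage points, was -0.10, -0.08 and -0.24 in old morphine and 0.16, 0.05 and 0.08 in young morphine. With a smooth trend on GC share and length removed from each library, the mitochondrial median fell from 0.50 to 0.06 and the nuclear median stayed at -0.11, against a median of -0.00448 over all genes. Of the nuclear members 73 of 84 were then below 0. In that fit 1 member passed, Ndufa4, with -0.41 (adjusted p = 0.0289 by edgeR), and 0.262% of all genes. All 10 called members kept their negative sign, from -0.10 for Ndufv1 to -0.34 for Uqcr11 and Ndufa7. With length-scaled counts 0 members passed. Without young morphine replicate 1, 3 of the 10 still passed, with 0 other members and 2.25% of all genes. Without old morphine replicate 1, 5 of the 10 passed and 6 members in all, Ndufs7 being the other, with 7.2% of all genes. Without old morphine replicate 2, 9 of the 10 passed and 20 members in all, 6 of them mitochondrial, with 7.13% of all genes. Atp5d, Cyc1 and Uqcr11 passed in each of the 12 fits that left out a library. In young mice the mitochondrial median for morphine was -0.30 with the trend removed, against -0.40 as deposited, and all 13 stayed below 0.

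**Figure D5:**
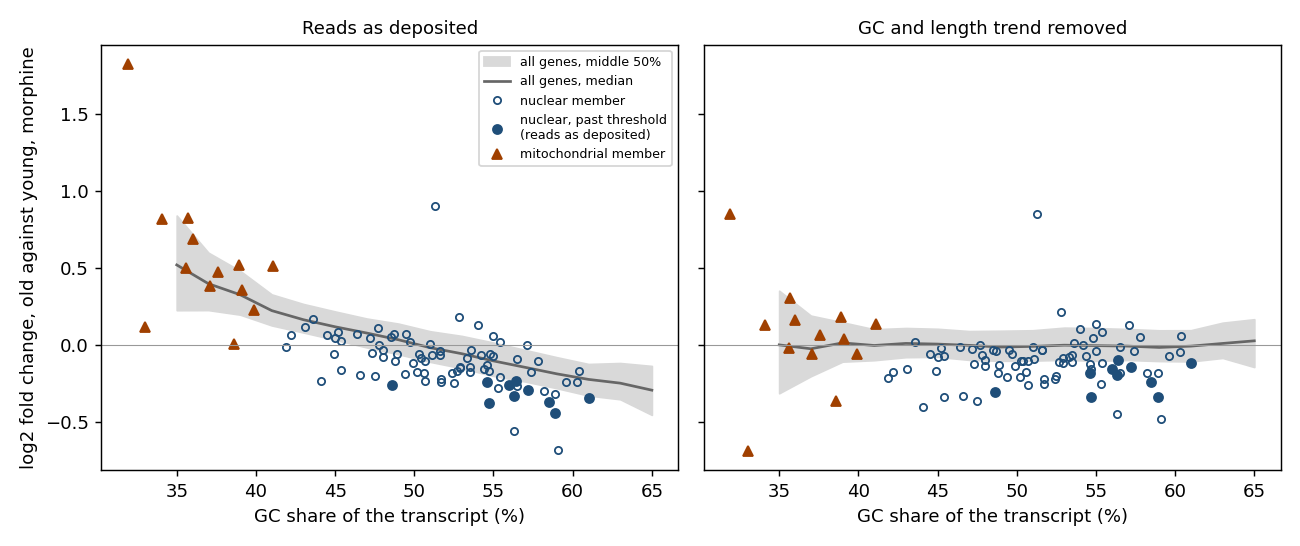
Log2 fold change of old against young mice under morphine (vertical axis) by GC share of the transcript (%), before (left) and after (right) removal of the GC and length trend of each library. Grey shows the median and middle 50% of all genes in bins of GC share; the mitochondrial median (triangles) is 0.50 on the left and 0.06 on the right.

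Genes that serve the pathway without belonging to it were counted in the same fit for old against young mice under morphine. The share called was 4.44% of assembly factors, 3.85% of mitochondrial ribosome genes, 6.67% of RNA synthesis genes and 5.56% of TCA cycle genes, all below the 9.65% of all genes. It was 8.33% of uncoupling genes, 10.1% of cytosolic ribosome genes and 11.1% of regulators, near that share, and 13.8% of import and dynamics genes. With so few genes called per list, these shares single out no list. Of 45 assembly factors, which help build the complexes, 2 fell (Cox14 and Coa3, both for complex IV) and 0 rose. Of 78 mitochondrial ribosome genes 3 fell (Mrpl4, Mrpl38 and Mrps7). Of 30 genes for mitochondrial RNA synthesis and stability 2 fell: Fastk, with -0.39 ± 0.06 (adjusted p = 0.00365), and Polrmt, the mitochondrial RNA polymerase, with -0.24 ± 0.07 (adjusted p = 0.0463). Of 18 regulators of nuclear pathway genes 2 rose, the deacetylase gene Sirt1 (0.42 ± 0.09) and the transcription factor gene Creb1 (0.34 ± 0.06). Of 18 TCA cycle genes 1 rose (Dld, 0.28 ± 0.08). Of 29 import and dynamics genes 4 fell, namely Fis1, Tomm5, Timm50 and Timm13, and of 12 genes of uncoupling and nucleotide exchange 1 fell, the brain creatine kinase gene Ckb (-0.32 ± 0.06). Of 79 cytosolic ribosome genes, short nuclear transcripts outside the pathway, 6 fell and 2 rose. In the other comparisons 0 genes of these lists passed, except Rpl10a of the cytosolic ribosome, which fell with morphine in old mice (adjusted p = 0.0282 by edgeR). With the GC and length trend removed 0 of these genes passed in this comparison. Outside the cytosolic ribosome, the genes that fell had a GC share of 48.8 to 60.1%, and the 3 that rose one of 40.3 to 42.4%.

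Promoter windows of RefSeq (GRCm38.p6, 250 bases before to 50 after a gene's start) were found by symbol for 67 of 86 nuclear symbols. On either strand, the NRF1 motif GCGCATGC was in windows of 10 of the 67 (14.9%), against 3.05% of 27025 symbols with a window. The ETS motif CCGGAAGT was in 5 (7.46%) against 4.31%, and the YY1 motif AAGATGGC in 9 (13.4%) against 3.19%. No motifs overlap in the stretches printed, and a match describes letters only. Of the called members, Uqcr11 and Cox8a, both markers, had a motif starting before the gene's start. Each is shown from 20 bases before its first motif to 20 bases after the RefSeq start, with motifs in capitals. Uqcr11 is from chr10:80406802-80406907 and Cox8a from chr19:7217597-7217642, both on the minus strand.
Uqcr11: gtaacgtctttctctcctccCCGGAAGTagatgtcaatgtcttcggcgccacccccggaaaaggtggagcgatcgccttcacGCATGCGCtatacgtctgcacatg
Cox8a: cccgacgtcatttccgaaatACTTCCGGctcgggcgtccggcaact
The Uqcr11 window held an ETS motif from 66 bases and an NRF1 motif, on the opposite strand, from 4 bases before the start. In Cox8a an ETS motif on the opposite strand began 6 bases before the start. Uqcrc1 held the NRF1 motif and Ndufb8 the YY1 motif, both after the start.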

How the data were processed

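RNA of 12 libraries was extracted with Trizol, depleted of ribosomal RNA and prepared with the KAPA RNA HyperPrep kit, per the labels. Per the submitters' processing notes, Salmon 1.4.0, DESeq2 1.30.1 and GRCm38 were used; strand and bias settings are not given in the sources used here. Per the file headers, the deposited files give for each transcript an estimated count, a TPM value and an effective length. Transcripts were joined to genes by GENCODE M21 identifiers, and estimated counts were summed and rounded.

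Genes kept by filterByExpr (16796) were scaled by TMM and fitted with edgeR 4.0.16 in R 4.3.3 over all 12 libraries with a mean per group. SEs were obtained by dividing the size of the log2 change by the root of F. Copies of mitochondrial genes were found with blastn at 90% identity or more over 100 bases or more. Alternatives were other scalings and filters, DESeq2 1.42.0, limma-voom, length-scaled counts, marker scores, a spline in GC share and length, a replicate block and leaving out each library; adding the copies in the gene fits, and the difference of mean log2 CPM for the ratio, were chosen after seeing the data. The fit was tested on simulated data with the same spread for every gene and no GC or length trend. That run cannot show how the fit behaves under such a trend. Replicate pairs differed by more than sampling noise (chi-square per degree of freedom 5.17 to 24.7).

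Named were the 13 mitochondrial genes, called members, the most abundant member of each complex, isoform pairs, and members or listed genes with the smallest p. The symbol rule uses no measured values, but the pathway, and with it the members, and the lists were chosen with earlier results of these data known. Of the promoters that the rule covers, those with a motif reaching before the start are printed.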

Additional observations from a re-analysis of the deposited data

Results flagged for a closer look

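Groups of 3 libraries are too small for the check for a library far from the others. In mt-Nd2, mt-Atp8 and mt-Atp6 every young morphine library was below every young saline library, and every old morphine library above every old saline library. The share of all genes with this pattern is not given, so it cannot be called unusual. As mt-Atp8 and mt-Atp6 share 43 bases, they are not separate instances. The difference of the morphine effects was 1.16 for mt-Nd2, 2.45 for mt-Atp8 and 0.868 for mt-Atp6 on the log2 scale, and none passed edgeR's test of that difference (adjusted p of 0.358, 0.308 and 0.369).

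Among nuclear copies of mitochondrial genes, which lie outside the members, Gm28661, the copy of mt-Co2, and Gm29216, a partial copy of mt-Co1, were higher in every old morphine library than in every old saline library. Their lowest levels in old morphine were 1150 CPM and 888 CPM, and the share of all genes with such a separation is not given. With the copies added, mt-Co2 and mt-Co1 had log2 fold changes of 0.11 and 0.05 for morphine in old mice (adjusted p of 0.701 and 0.857 by edgeR).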

How the results depend on the processing

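For old against young mice under morphine, 10 members passed as reported (9.65% of all genes), 22 by DESeq2 (14.1%), 18 with at least 1 CPM in every library (13.7%), 18 with an olfactory bulb score (10.2%) and 16 with a myelin score in the model (12.2%). The count was 0 with length-scaled counts (0.148%), 1 with the GC and length trend removed (0.262%) and 0 with that and the block (0.107%). It was 3 to 20 when a library was left out, the lowest with 2.25% and the highest with 7.13% of all genes. The mitochondrial median, 0.50 as reported, was 0.0612 with the trend removed, 0.0493 with the block added to that, and 0.18 to 0.67 when a library was left out. The ratio difference, 0.48 as reported from summed reads, can be set beside the difference of mean log2 CPM, another measure, which was 0.64 as deposited and 0.16 with the trend removed. That measure, as deposited, was 0.35 for morphine in old mice and 0.756 for the difference of morphine effects, against 0.07 and 0.37 with the trend removed. For the difference of morphine effects, DESeq2 called 1 member, the mitochondrial median was 0.31 with the trend removed, 0.30 with the block added and 0.33 to 0.84 when a library was left out, the nuclear median then ran from -0.108 to 0.00628, and the ratio difference was 0.24 from median log2 CPM. For morphine in old mice, DESeq2 called 2 members, and the mitochondrial median was -0.0697 to 0.405 when a library was left out. For morphine in young mice a myelin score gave medians of -0.735 (mitochondrial) and -0.0834 (nuclear). For age under saline it gave 1 called member, Cox6a1, and an olfactory bulb score gave a nuclear median of 0.0155. The cause of these shifts was not tested.

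Replicate numbers did not pair the samples: same-number deviations correlated at -0.209 to 0.066 and other pairs at -0.237 to 0.264. With the replicate block 10 members passed for age under morphine, and 0 did in the rest. The mitochondrial medians with the block were -0.145, -0.392, 0.208, 0.592 and 0.471, and the nuclear medians -0.06, 0.0355, -0.0223, -0.0713 and -0.115, for age under saline, morphine in young, morphine in old, their difference and age under morphine. Within-number ratio differences must have the same means as reported, since every group holds each replicate number, and they say nothing about pairing. An exact two-sided permutation test of 3 against 3 libraries cannot go below 0.1.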
